A study of Homo sapiens with 5 samples.

Results

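The genes described here encode nuclear subunits of the mitochondrial respiratory chain and of ATP synthase. They were chosen by symbol alone: symbols that start with NDUFA, NDUFB, NDUFC, NDUFS, NDUFV, UQCR or ATP5, or with COX4, COX5, COX6, COX7 or COX8, and the symbols SDHA to SDHD and CYC1. Pseudogenes, antisense transcripts and the NDUFAF assembly factors were left out, and where a gene had several probe sets, the brightest by its average over the 5 arrays was used. The choice gave 78 of the 19775 genes that had a probe set with 1 symbol. Complex I had 33 members, complex II 3, complex III 7, complex IV 17 and complex V, the ATP synthase, 18. Of 89 protein-coding genes whose symbols fit this choice, 11 are not analysed here. Among these are NDUFC2, NDUFS5, NDUFS8 and UQCRH, whose probe sets carry further symbols.

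Messenger RNA of PC-3, a human line of prostate cancer that grows without androgen and came from a bone metastasis, was measured on 5 Affymetrix arrays. The spheroid array held cells from a 3-dimensional culture and the 2D array held cells from a flat culture, and the labels name no hairpin for either. The arrays labelled shTRIB1-1 and shTRIB1-2 held cells expressing different short hairpin RNAs against TRIB1, a pseudokinase, and the shGFP array held cells expressing a control hairpin against GFP. The design addresses how expression differs with growth in 3 dimensions and which genes respond to TRIB1. Except for the pair of TRIB1 hairpins, each condition had 1 array, and the labels do not say whether arrays came from separate cultures, so a p-value measures only the spread between these arrays. No source used here says whether the hairpin cells were clones or pools, or describes a spheroid method: the labels state dish culture for all samples.

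The respiratory chain passes electrons from NADH and succinate through complexes I to IV to oxygen and pumps protons across the inner mitochondrial membrane, and ATP synthase uses the returning protons to make ATP. Most subunits are encoded in the nucleus, translated in the cytosol and imported, while a few core subunits of complexes I, III, IV and V are encoded by mitochondrial DNA. In cells the chain also allows aspartate and pyrimidine synthesis to go on, by oxidising NADH and dihydroorotate. Several subunits of complex IV have alternative isoforms that are expressed in muscle, testis or lung.

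Levels are log2 values of the deposited intensities, and a difference of 1 in level is 2-fold. The array medians lay between 32.97 and 33.36 in intensity. All 5 epithelial markers (KRT8, KRT18, KRT19, EPCAM, CDH1) were above a level of 6 on every array, and all 4 fibroblast and all 4 striated muscle markers were below 6 on every array. A level just above 6 does not show expression: KLK3, a gene PC-3 is known to lack, was at 6.90 on all 5 arrays, and the haemoglobin gene HBB lay between 6.15 and 6.25. TRIB1 itself was at 11.91 and 11.76 under the labels shTRIB1-1 and shTRIB1-2, against 11.97 on the shGFP array, so the arrays do not show a clear depletion, and directions below are those of the labelled arrays. The ratio of 5′ to 3′ actin signal, which reflects RNA quality and labelling, was 0.131 on the spheroid array against 0.184 on the 2D array. It was 0.445 and 0.442 under the labels shTRIB1-1 and shTRIB1-2, against 0.436 on the shGFP array.

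In PC-3 cells 71 of the 78 genes were measured well above background. Their levels ran from 8.37 to 13.66 over all arrays, and all 71 passed the level filter of 6 in every comparison. The other 7 were below 6 on all arrays, between 2.68 and 5.54. They were ATP5MF, a membrane subunit of ATP synthase whose bright probe set carries a further symbol, and the isoform genes COX4I2, COX6A2, COX6B2, COX7A1, COX7B2 and COX8C. COX4I2 is the lung isoform of subunit 4, COX6A2 and COX7A1 are the heart and muscle isoforms of subunits 6A and 7A, and COX6B2 is a testis isoform of subunit 6B. COX4I2 was at 5.15 on the spheroid array, 5.29 on the 2D array, 5.46 and 5.27 under the labels shTRIB1-1 and shTRIB1-2 and 5.27 on the shGFP array. The isoform genes thus stayed at a background signal in every condition, including the spheroid, and no fold is given for them. Their counterparts in most tissues, COX4I1, COX6A1, COX6B1, COX7A2, COX7B and COX8A, lay between 11.27 and 13.14 over all arrays.

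The 71 subunit genes varied little between the arrays. The range over the 5 arrays had a median of 0.35 for the subunit genes against 0.62 for all 10843 genes at the filter. Since bright probe sets vary less, the 67 subunit genes with a mean level of at least 10 were also set beside all 2095 genes of that level. Their median ranges were 0.34 and 0.55. Both sets share only this lower bound and were not matched for level above it, so the comparison does not remove brightness. A range of at least 1 occurred in 3 of the 71 subunit genes (4.23%), which were COX6C, NDUFAB1 and NDUFB2, against 24.4% of all genes and 16.8% of the 2095 bright genes. In COX6B1, ATP5PD and ATP5F1E the range was under 0.1. COX6B1, a subunit on the intermembrane side of complex IV, was at 11.30 on the spheroid array, 11.34 on the 2D array, 11.27 and 11.33 under the labels shTRIB1-1 and shTRIB1-2 and 11.30 on the shGFP array. ATP5F1E, the epsilon subunit of the ATP synthase stalk, was between 13.29 and 13.38 on all arrays.

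Growth as spheroids was set against growth in 2D. Most subunit genes were slightly lower in the spheroid and none was 2-fold different. Over the 71 genes the median difference, spheroid minus 2D, was -0.097, with a range of -0.64 to 0.54, and the median over all 10570 genes was -0.0083. Of the subunit genes 21 (29.6%) were higher and 48 (67.6%) lower, against 47.3% and 50.9% of all genes. At a difference of at least 1, 0 were higher and 0 lower, where 5.05% of all genes were higher and 5.23% lower. At a difference of at least 0.5, which is 1.41-fold, 1 gene was higher (1.41%) and 3 were lower (4.23%), against 15.1% and 15.7% of all genes. Of the 2095 bright genes, 52 were higher and 88 lower by at least 1, and 256 and 296 by at least 0.5. Within 0.25 of zero lay 52 of the 71 (73.2%), against 43.7% of all genes. With 1 array per condition there is no test, and the part of the lower actin and GAPDH 5′ to 3′ ratios of the spheroid array in these small differences was not tested. The GAPDH ratio was 0.763 on the spheroid array and 0.895 on the 2D array. Of 3 endothelial markers, PECAM1 was at 9.53 on the spheroid array and 7.57 on the 2D array, and VWF and CDH5 were below 6 on every array. In RNA of whole cultures, fewer cells that express a gene and less RNA per cell cannot be told apart.

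**Figure D1:**
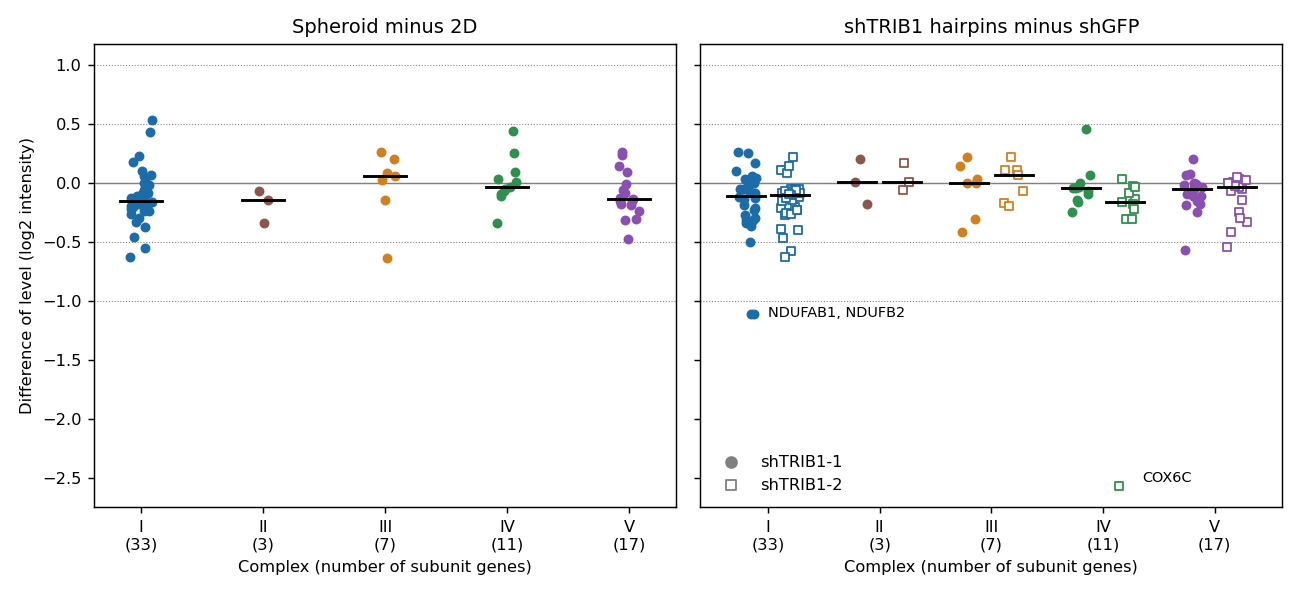
Difference of level (log2 intensity, vertical axis) of the 71 subunit genes above the filter, by complex with the number of genes in parentheses. Left, spheroid minus 2D. Right, the array labelled shTRIB1-1 (filled circles) and the array labelled shTRIB1-2 (open squares), each minus shGFP. Each point is 1 gene and black lines are medians. Spheroid differences lie between -0.64 and 0.54, and on the right COX6C, NDUFAB1 and NDUFB2 lie below -1.

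The 4 genes past 0.5 were UQCRC1, NDUFA9 and NDUFB8, which were lower, and NDUFS4, which was higher. UQCRC1 encodes a core protein of complex III, descended from a processing peptidase. Its level was 10.22 on the spheroid array and 10.86 on the 2D array, a difference of -0.64 (1.56-fold), with 10.79 and 10.90 under the labels shTRIB1-1 and shTRIB1-2 and 11.09 on the shGFP array. The spheroid array was thus the lowest of the 5. NDUFA9, a complex I subunit beside the site where ubiquinone enters, was at 10.27 on the spheroid array and 10.90 on the 2D array, a difference of -0.63, with 10.64 and 10.40 under the labels shTRIB1-1 and shTRIB1-2 and 10.98 on the shGFP array. NDUFB8, a subunit of the distal membrane arm that is often used to follow assembled complex I, was at 10.40 and 10.96, a difference of -0.55. Its other bright probe set differed by -0.70. All 3 genes were also lower on both hairpin arrays than on the shGFP array. NDUFS4, an accessory subunit that stabilises the NADH-oxidising module and whose loss causes Leigh syndrome, was at 10.51 on the spheroid array and 9.98 on the 2D array, a difference of 0.54. The other arrays were close to the 2D array, at 10.00 and 9.74 under the labels shTRIB1-1 and shTRIB1-2 and 10.00 on the shGFP array. As the median over its probe sets, 1 of them near background, NDUFS4 differed by 0.26.

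The promoters of these 4 genes are shown because they are the subunit genes that differed most between spheroid and 2D, and they differ in the motifs they hold. They run from 250 bases before to 50 bases after the annotated start, on the sense strand of each gene, and come from RefSeq on GRCh38.p14. Capitals mark matches to an NRF1 motif (GCGC, any base, then TGCGC), an ETS motif bound by GABP (CCGGAAG) or a YY1 motif (AAGATGG), searched on both strands.
UQCRC1 (chr3:48609597-48609896, - strand): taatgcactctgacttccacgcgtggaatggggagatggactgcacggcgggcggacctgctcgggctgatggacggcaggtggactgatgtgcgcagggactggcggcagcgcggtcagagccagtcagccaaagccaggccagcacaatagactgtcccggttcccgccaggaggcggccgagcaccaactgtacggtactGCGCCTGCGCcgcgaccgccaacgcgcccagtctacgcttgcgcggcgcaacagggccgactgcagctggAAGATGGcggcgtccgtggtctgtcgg
NDUFA9 (chr12:4648864-4649163, + strand): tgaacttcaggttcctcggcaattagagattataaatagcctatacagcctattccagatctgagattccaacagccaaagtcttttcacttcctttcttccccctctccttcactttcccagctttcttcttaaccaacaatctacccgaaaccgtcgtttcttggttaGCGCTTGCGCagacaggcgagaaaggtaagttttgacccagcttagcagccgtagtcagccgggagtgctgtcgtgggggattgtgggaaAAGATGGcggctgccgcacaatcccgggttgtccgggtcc
NDUFB8 (chr10:100529874-100530173, - strand): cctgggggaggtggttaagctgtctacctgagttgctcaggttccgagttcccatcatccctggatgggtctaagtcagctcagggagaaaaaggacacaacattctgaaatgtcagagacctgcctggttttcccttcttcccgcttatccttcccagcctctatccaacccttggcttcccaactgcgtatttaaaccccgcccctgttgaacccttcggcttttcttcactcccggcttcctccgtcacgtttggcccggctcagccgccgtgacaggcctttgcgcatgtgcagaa
NDUFS4 (chr5:53560389-53560688, + strand): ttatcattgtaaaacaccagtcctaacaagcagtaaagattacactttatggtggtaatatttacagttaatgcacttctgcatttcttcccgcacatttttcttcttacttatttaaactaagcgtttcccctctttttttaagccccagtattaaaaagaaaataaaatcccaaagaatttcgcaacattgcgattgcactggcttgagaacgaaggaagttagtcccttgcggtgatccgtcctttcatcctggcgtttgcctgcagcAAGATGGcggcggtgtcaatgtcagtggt
UQCRC1 had the NRF1 motif at position -47 and the YY1 motif at position 24 from the start. NDUFA9 had the same pair of motifs, at -80 and 11. NDUFS4, the gene that was higher in the spheroid, had the YY1 motif alone, at 22, and NDUFB8 had none of the 3 in this window. A match is a description of the letters and not evidence of binding.

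Over the members, 66 of 78 had a promoter in the RefSeq table. NRF1 motifs occurred in 16 of them (24.2%), against 8.58% of 15843 protein-coding promoters of the same length. ETS motifs occurred in 18 (27.3%), against 14.2%, and YY1 motifs in 15 (22.7%), against 6.4%. At least 1 of the 3 was found in 38 of the 66, and the share over all promoters was not computed for this count. NRF1, GABP and YY1 are transcription factors long known to act on nuclear genes for respiration. In the spheroid the median difference was -0.15 with an NRF1 motif (15 genes above the filter) and -0.069 without (47 genes), -0.076 with an ETS motif (18) and -0.10 without (44), and -0.096 with a YY1 motif (15) and -0.097 without (47). On the hairpin arrays the median of the mean difference from shGFP was -0.0086 with an NRF1 motif and -0.11 without, -0.019 with an ETS motif and -0.12 without, and -0.042 with a YY1 motif and -0.11 without.

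By complex, the spheroid medians were -0.15 for complex I, -0.15 for complex II, 0.061 for complex III, -0.037 for complex IV and -0.14 for complex V. Those of complexes II and III turned to 0.14 and -0.14 without probe sets whose names end in _s_at or _x_at, which can match several transcripts. Complex II then held SDHC and SDHD alone, because the only probe set of SDHA ends in _x_at. Complex I oxidises NADH in its peripheral arm and pumps protons in its membrane arm, and the median was below 0 in all 4 of its regions. It was -0.15 for 9 genes of the electron input arm, -0.096 for 5 genes of the quinone arm, -0.18 for 7 genes of the proximal membrane arm and -0.15 for 12 genes of the distal membrane arm. NDUFV1, which carries the flavin that accepts electrons from NADH, was at 10.33 on the spheroid array and 10.70 on the 2D array, a difference of -0.37. NDUFS1, the largest iron-sulphur subunit of the input arm, differed by -0.29 and NDUFB11 of the distal arm by -0.46. Against this direction, NDUFA2, a small subunit of the input arm, was at 11.64 and 11.21, a difference of 0.43, and NDUFB5 differed by 0.23. Both were thus higher on the spheroid array, as NDUFS4 was.

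Complexes II and III are linked by ubiquinone, and their medians differed in sign with the chosen probe sets. In complex II the flavoprotein SDHA differed by -0.15, and the membrane anchors SDHC and SDHD by -0.34 and -0.065. Without probe sets ending in _s_at or _x_at SDHC turned to 0.34. This value came from a dimmer probe set, at 7.67 on the spheroid array and 7.33 on the 2D array. Another dim probe set of SDHC, at 7.12 and 7.54, gave -0.42. The other 3 bright probe sets of SDHC gave -0.32, -0.27 and -0.10. In complex III the core proteins parted: UQCRC2 was at 11.71 on the spheroid array and 11.45 on the 2D array, a difference of 0.27, beside the -0.64 of UQCRC1. The other bright probe set of UQCRC2 differed by 0.25. CYC1, the haem-bearing cytochrome c1, differed by -0.14, and the small subunits UQCR10, UQCRQ, UQCR11 and UQCRB by 0.20, 0.087, 0.061 and 0.025. UQCR10 turned to -0.56 without probe sets ending in _s_at or _x_at.

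In complex IV, COX7A2L and COX7A2 were the highest in the spheroid relative to 2D. COX7A2L, which joins complexes III and IV into supercomplexes, was at 11.86 on the spheroid array and 11.42 on the 2D array, a difference of 0.44. COX7A2 differed by 0.25. COX8A, a small subunit needed for a stable complex, differed by -0.34 and COX6A1 by -0.11. The other 7 genes of complex IV above the filter, among them COX4I1, COX5A, COX5B and COX6C, lay between -0.097 and 0.092.

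In ATP synthase, the head and stalk were lower in the spheroid and the membrane rotor was mixed. The catalytic head genes ATP5F1A and ATP5F1B differed by -0.31 and -0.18. ATP5F1C, the gamma subunit that turns inside the head, was at 10.98 on the spheroid array and 11.45 on the 2D array, a difference of -0.47, and its other 2 bright probe sets gave -0.43 and -0.40. A dim probe set of the same gene, at 6.42 and 5.05, gave 1.37 in the opposite direction. The other stalk genes ATP5F1D and ATP5F1E differed by -0.30 and -0.055, and all 4 peripheral stalk genes were lower, with a median of -0.15. ATP5MC1, ATP5MC2 and ATP5MC3 encode the same mature c subunit of the rotor ring. Their differences were 0.091, 0.27 and -0.12. ATP5IF1, which inhibits the enzyme when it runs backwards, was at 9.94 and 9.79, a difference of 0.14. Another of its bright probe sets gave 0.053, and a dimmer one, at 7.26 on the spheroid array and 7.85 on the 2D array, gave -0.59.

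**Figure D2:**
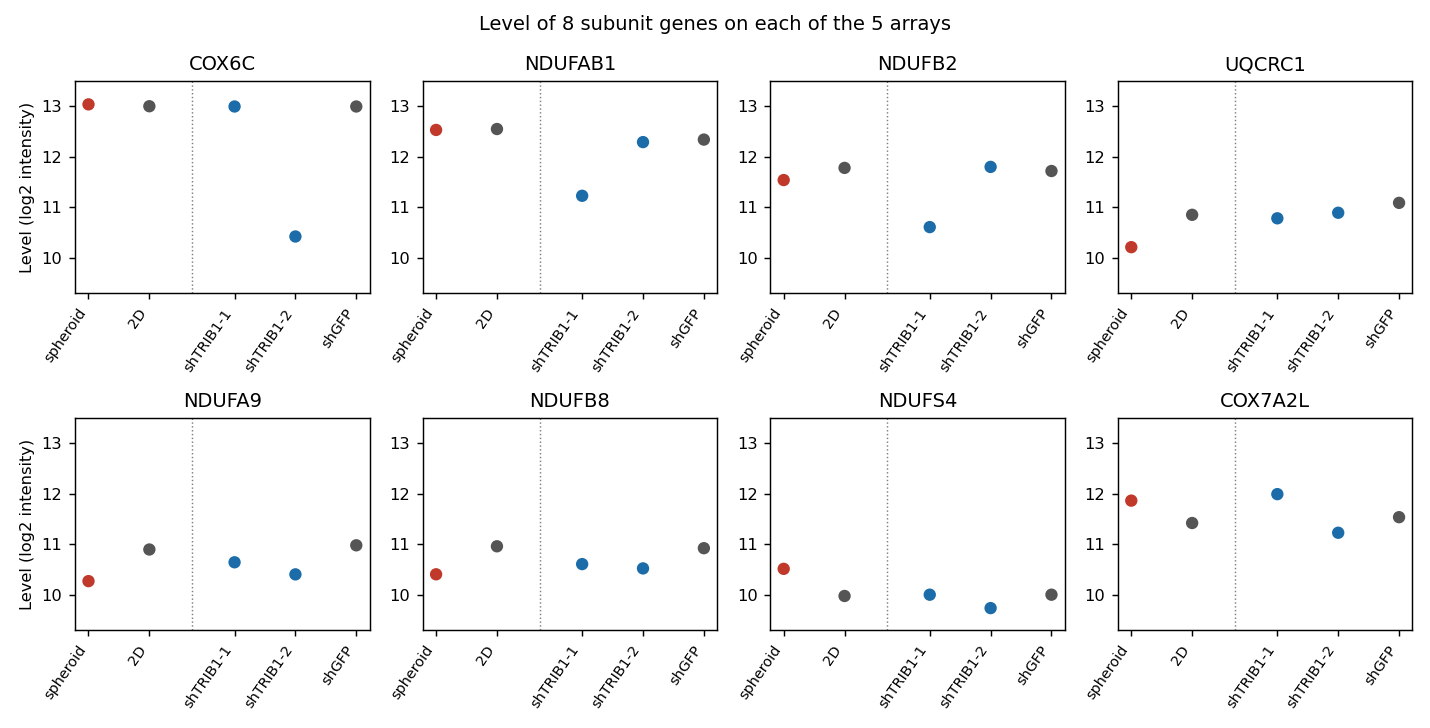
Level (log2 intensity, vertical axis) of 8 subunit genes on each array, 1 point per array. From left to right in each panel: spheroid (red) and 2D (grey), then shTRIB1-1 and shTRIB1-2 (blue) and shGFP (grey). COX6C is at 10.43 on the array labelled shTRIB1-2 and near 13.0 on the others, and NDUFAB1 and NDUFB2 are low on the array labelled shTRIB1-1 alone.

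To look for a response to TRIB1, the arrays with TRIB1 hairpins were set against the array with the control hairpin. Subunit genes were a little lower on both labelled arrays, but the genes that differed by 2-fold did so on 1 array only. The median difference from shGFP was -0.051 under the label shTRIB1-1 and -0.083 under the label shTRIB1-2, and the median of the means was -0.096, against -0.027 for all 10522 genes. Of the 71 subunit genes 39 (54.9%) were lower on both arrays, 9 (12.7%) higher on both and 17 (23.9%) opposite, against 34.7%, 25.0% and 32.1% of all genes. All these differences share the shGFP array, so its own deviation enters each of them. At a difference of at least 0.5 on both arrays 0 genes were higher and 0 lower, where 2.5% of all genes were higher and 1.69% lower. At a difference of at least 1 on both the counts were 0 and 0 as well, where 0.361% and 0.0855% of all genes passed. Of the 2095 bright genes, 43 were higher and 25 lower by at least 0.5 on both. Limma called 0 of 10522 genes, with a smallest adjusted p of 0.951, and 356 genes (3.38%) had an unadjusted p under 0.05, of which 0 were subunit genes. The fit has 1 residual degree of freedom, so a missed threshold does not show that levels were alike.

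COX6C stood out on the array labelled shTRIB1-2. It encodes a small subunit of complex IV. Its level was 13.04 on the spheroid array, 13.00 on the 2D array, 13.00 and 10.43 under the labels shTRIB1-1 and shTRIB1-2, and 13.00 on the shGFP array. The level was thus nearly the same on 4 arrays and 5.94-fold lower on 1. The difference of -2.57 from shGFP was the lowest of all 10522 genes on that array, where 0.817% of genes were lower and 1.34% higher by at least 1. The mean of both hairpin arrays was -1.28 ± 1.82 (SD, n = 2), an SD that does not hold the spread of the shGFP array. COX6C had 1 probe set with a single symbol, so no other probe set gives a value to set beside it. The other 10 complex IV genes above the filter differed from shGFP by between -0.31 and 0.036 on the same array.

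On the array labelled shTRIB1-1 the 2 genes past a difference of 1 were NDUFAB1 and NDUFB2. On that array 1.86% of all genes were lower and 2.0% higher by at least 1. NDUFAB1 and NDUFB2 were both counted here with the distal membrane arm of complex I. NDUFAB1 is the mitochondrial acyl carrier protein, which serves fatty acid and lipoic acid synthesis as well as complex I. It was at 11.23 and 12.29 under the labels shTRIB1-1 and shTRIB1-2, against 12.34 on the shGFP array, with differences of -1.11 and -0.050. The spheroid and 2D arrays were at 12.53 and 12.55, so that array alone was low. NDUFB2 was at 10.61 and 11.80 under the labels shTRIB1-1 and shTRIB1-2, against 11.72 on the shGFP array, with differences of -1.11 and 0.081. It was at 11.54 on the spheroid array and 11.78 on the 2D array. Its other bright probe set was low in the same way and differed from shGFP by -1.05 and -0.016. Its dim probe set, at 5.50 and 5.51 against 6.19 on the shGFP array, differed by -0.70 and -0.68. The mean differences were -0.58 ± 0.75 for NDUFAB1 and -0.51 ± 0.84 for NDUFB2 (SD, n = 2), in both cases under the SD between the hairpins. Their promoters are shown because both genes passed a difference of 1 on a hairpin array. COX6C passed it too but had no promoter in the RefSeq table used here. The promoters of NDUFAB1 and NDUFB2 held none of the 3 motifs, like that of NDUFB8 and unlike those of UQCRC1, NDUFA9 and NDUFS4. At least 1 of the 3 motifs was found in 38 of the 66 member promoters, a count with no share computed over all promoters. Of 15843 protein-coding promoters, 8.58%, 14.2% and 6.4% held the NRF1, ETS and YY1 motifs, so most promoters lack each of them.
NDUFAB1 (chr16:23596267-23596566, - strand): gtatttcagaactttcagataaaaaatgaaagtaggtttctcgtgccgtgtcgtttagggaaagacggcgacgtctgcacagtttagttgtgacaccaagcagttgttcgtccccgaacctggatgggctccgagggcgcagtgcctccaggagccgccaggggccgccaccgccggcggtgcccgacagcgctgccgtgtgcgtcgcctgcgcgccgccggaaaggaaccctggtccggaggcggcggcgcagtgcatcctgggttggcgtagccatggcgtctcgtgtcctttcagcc
NDUFB2 (chr7:140696458-140696757, + strand): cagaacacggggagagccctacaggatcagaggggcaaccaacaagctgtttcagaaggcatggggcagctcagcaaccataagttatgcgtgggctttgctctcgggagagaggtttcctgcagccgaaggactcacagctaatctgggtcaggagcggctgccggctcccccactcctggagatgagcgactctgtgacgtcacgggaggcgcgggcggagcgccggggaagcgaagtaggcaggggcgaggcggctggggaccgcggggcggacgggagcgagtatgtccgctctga
Neither promoter therefore has a letter in capitals.

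**Figure D3:**
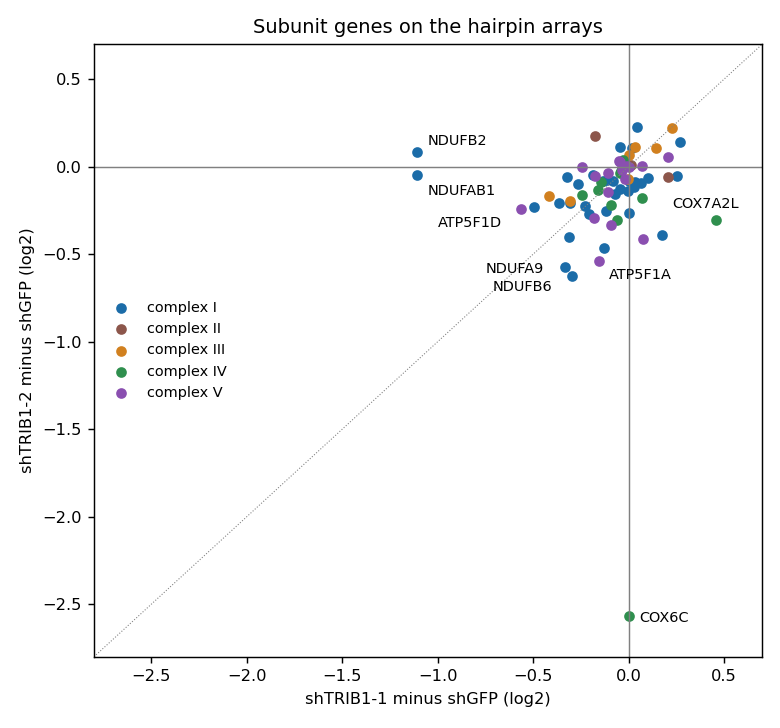
Difference from shGFP (log2 intensity) of the 71 subunit genes on the array labelled shTRIB1-1 (horizontal axis) and its counterpart labelled shTRIB1-2 (vertical axis), coloured by complex. The dotted line marks equal differences on both arrays. Most genes lie near the origin and 39 lie below 0 on both axes, while COX6C, NDUFAB1 and NDUFB2 lie far out along 1 axis only.

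Smaller differences were shared by both hairpin arrays in several genes. On single arrays, 3 subunit genes (4.23%) were lower by at least 0.5 under the label shTRIB1-1 and 4 (5.63%) under the label shTRIB1-2, against 9.41% and 6.07% of all genes, and 0 were higher by that much, against 7.92% and 6.78%. Among the 2095 bright genes, 131 and 97 were lower by at least 0.5 on these arrays, and 146 and 94 higher. NDUFA9 was lower by -0.34 and -0.57, NDUFB6 by -0.30 and -0.63 and NDUFB8 by -0.31 and -0.40 under the labels shTRIB1-1 and shTRIB1-2. NDUFB10 differed by -0.50 and -0.23. In ATP synthase, ATP5F1D, the delta subunit of the stalk, was at 8.37 and 8.69 against 8.94 on the shGFP array, with differences of -0.57 and -0.24. ATP5F1A, the alpha subunit of the head, was at 13.08 and 12.69 against 13.23, with differences of -0.15 and -0.54. CYC1 differed by -0.42 and -0.17, UQCRC1 by -0.31 and -0.20, COX5B by -0.25 and -0.16 and COX5A by -0.064 and -0.31. None of them passed limma. The gene with the lowest unadjusted p was NDUFB9, at -0.24 with a standard error of 0.062 (limma, unadjusted p = 0.0621, adjusted p = 0.951).

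The genes that were higher on both arrays differed by little. UQCR10, a small subunit of complex III, was at 12.14 and 12.13 under the labels shTRIB1-1 and shTRIB1-2, against 11.92 on the shGFP array, a difference of 0.22 on each. NDUFB3 differed by 0.27 and 0.14, UQCRB by 0.14 and 0.11 and ATP5MK by 0.21 and 0.052. COX7A2L, which was higher in the spheroid, was at 11.99 and 11.23 under the labels shTRIB1-1 and shTRIB1-2, against 11.53 on the shGFP array. Its differences of 0.46 and -0.31 thus had opposite signs. By complex, the medians of the mean hairpin difference were -0.11 for complex I, 0.0094 for complex II, 0.033 for complex III, -0.12 for complex IV and -0.074 for complex V. Without probe sets ending in _s_at or _x_at those of complexes II, III and V turned to -0.076, -0.037 and 0.0013. Complex II was again left with SDHC and SDHD alone. In complex I, 20 of 33 genes were lower on both arrays and 3 higher on both. In complex IV, 7 of 11 were lower on both and 0 higher on both. Over all genes 34.7% were lower on both and 25.0% higher on both.

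The shGFP and 2D arrays, which serve as controls of the comparisons above, differed less in these genes. The difference shGFP minus 2D had a median of -0.0050 over the 71 genes and ran from -0.31 in NDUFB3 to 0.38 in NDUFV3, a small subunit of the input arm. No gene passed 0.5, where 8.62% of all genes were higher by at least that much and 9.52% lower. Of the 2095 bright genes, 154 were higher and 108 lower by at least 0.5. The 2 main comparisons share no array. Over the 71 genes, 32 were lower in the spheroid than in 2D and also lower on both hairpin arrays than on shGFP, which is 45.1%, against 22.8% of the 10249 genes at the filter in both comparisons. In all 3 differences 6 were higher (8.45%), against 15.8% of all genes. The separate shares differed in the same way: 67.6% of subunit genes were lower in the spheroid, against 50.9% of all genes. Lower on both hairpin arrays were 54.9%, against 34.7%. The joint shares follow in part from these and do not by themselves show a joint response. As a description, the spheroid difference and the mean hairpin difference correlated across the 71 genes with r = 0.28 and rho = 0.36, and across the 10249 genes with r = 0.33 and rho = 0.30. Without the 3 subunit genes that were past 1 on a hairpin array, r was 0.46 and rho 0.40 across 68 genes. These genes were left out by the hairpin values themselves, and the 10249 genes were not trimmed in this way, so the values are not alike. Genes are not independent replicates, and all 5 arrays were normalised together.

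The core subunits encoded by mitochondrial DNA differed in direction from the nuclear subunits. All 7 that had a probe set with 1 symbol were higher on the spheroid array than on the 2D array, with a median difference of 0.99. Over all genes 47.3% were higher. ND2, a proton-pumping subunit of complex I, was at 13.55 on the spheroid array and 12.04 on the 2D array, a difference of 1.51. COX1, the catalytic subunit of complex IV, was at 13.92 and 12.60, a difference of 1.32, and ATP6, the proton channel of ATP synthase, was at 13.27 and 12.28, a difference of 0.99. COX3 differed by 1.05, ND4 by 0.96, COX2 by 0.56 and ND6 by 0.35. All 7 were also higher on both hairpin arrays than on shGFP, against 25.0% of all genes. Their medians were 0.52 under the label shTRIB1-1 and 0.55 under the label shTRIB1-2. ND2 was at 11.64 and 11.68 on these arrays, against 11.12 on the shGFP array. The shGFP array itself was lower than the 2D array in all 7, with a median of -0.67. With the average of 2D and shGFP as the baseline the hairpin median was therefore 0.10, while the spheroid median was 1.29. Nuclear DNA holds near-identical copies of these genes, so the signals are uncertain in their source, and without probe sets ending in _s_at or _x_at the medians were 0.42 in the spheroid and 0.81 on the hairpin arrays.

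**Figure D4:**
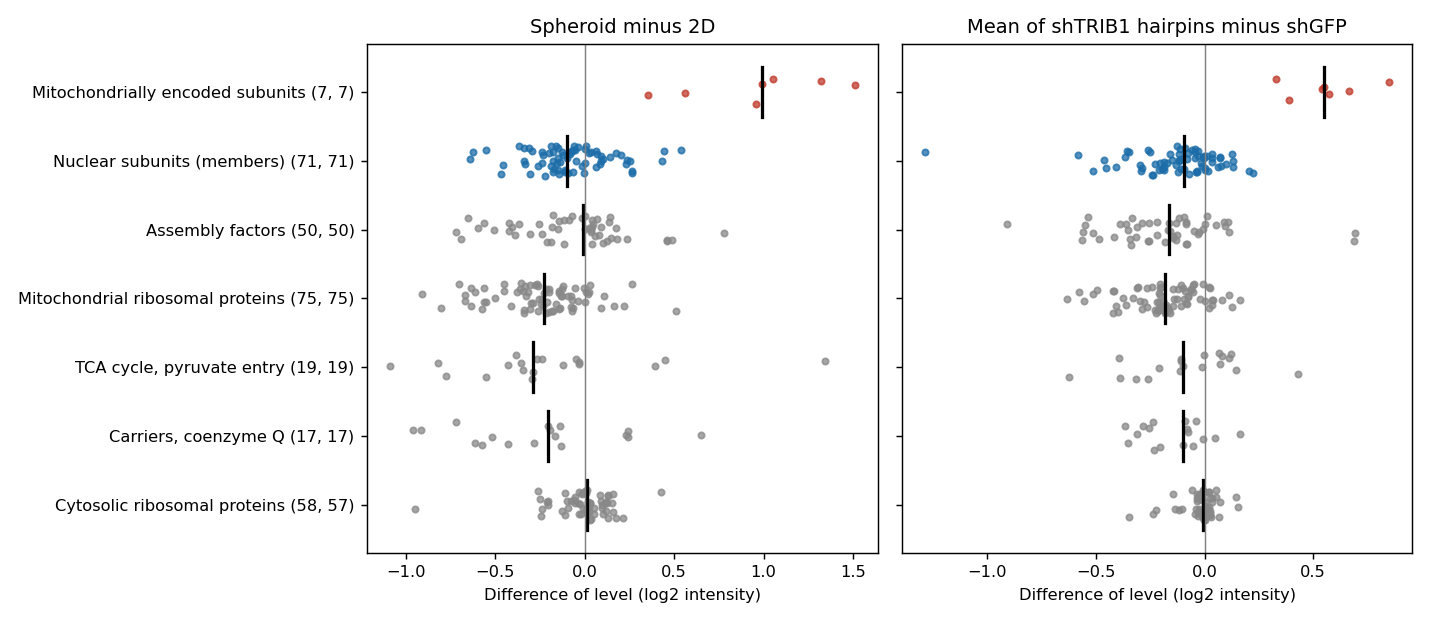
Difference of level (log2 intensity, horizontal axis) for the subunit genes and other gene lists, spheroid minus 2D on the left and the mean of both hairpin arrays minus shGFP on the right. Each point is 1 gene, black lines are medians and parentheses give the number of genes above the filter in each panel. The mitochondrially encoded subunits have medians of 0.99 and 0.55, and the nuclear subunits medians of -0.097 and -0.096.

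Other nuclear genes of mitochondria gave context. Mitochondrial ribosomal proteins, which translate the mitochondrially encoded subunits, had a median of -0.23 in the spheroid. Of these genes 64 of 75 were lower there, against 50.9% of all genes. On the hairpin arrays 57 of 75 were lower on both, against 34.7% of all genes, with a median of -0.18. MRPL11 was lowest in the spheroid at -0.91, and MRPS7 lowest by the mean of both hairpin arrays, at -0.60 and -0.66. Tricarboxylic acid cycle and pyruvate entry genes had a median of -0.29 in the spheroid, with 16 of 19 lower, against 50.9% of all genes. Among them isocitrate dehydrogenase IDH2 was at 7.07 on the spheroid array and 8.16 on the 2D array, a difference of -1.09. The citrate synthase gene CS differed by -0.78, whereas MPC1, a subunit of the pyruvate carrier, was higher, at 10.19 and 8.85, a difference of 1.34. Cytosolic ribosomal proteins, another class of bright housekeeping genes, had medians of 0.014 in the spheroid and -0.0081 on the hairpin arrays.

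Assembly factors, which insert haem, copper and iron-sulphur clusters and join the subunits, had a median of -0.0078 in the spheroid. On the hairpin arrays their median was -0.16, and 30 of 50 were lower on both, against 34.7% of all genes. COX18, which inserts a core subunit of complex IV into the membrane, was at 7.96 and 8.98 under the labels shTRIB1-1 and shTRIB1-2, against 9.38 on the shGFP array, with differences of -1.42 and -0.40. COX15, which makes the haem of complex IV, was at 8.58 and 7.17 against 8.44, with differences of 0.14 and -1.27. Each was thus 2-fold lower on 1 hairpin array only, as COX6C, NDUFAB1 and NDUFB2 were. TTC19, which acts in complex III, was the 1 assembly factor higher by at least 0.5 on both, with differences of 0.65 and 0.74. COX20, which helps to assemble complex IV, differed by 0.96 and 0.41. Genes of coenzyme Q synthesis and electron carriers had medians of -0.20 in the spheroid and -0.098 on the hairpin arrays, protein import -0.11 and -0.11, and nucleotide carriers with cristae genes -0.24 and -0.096. The regulators of respiratory gene transcription had medians of -0.055 and -0.14. Among these TFAM, which packages and transcribes mitochondrial DNA, was at 10.37 on the spheroid array and 11.21 on the 2D array, a difference of -0.84. The nuclear receptor PPARA was at 7.85 and 6.12, a difference of 1.74. For both genes the shGFP array was nearer to the spheroid than to the 2D array, at 10.43 for TFAM and 7.14 for PPARA.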

How the data were processed

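Per the submitters' processing notes, the authors used RMA, which corrects background, normalises by quantiles and summarises probes. The deposited table holds linear intensities of 5 arrays, each made from 100 ng of total RNA per the labels' protocols. No source used here names the RMA version or the chip definition. Quantile normalisation gives all arrays nearly the same distribution, so a shift of most genes would be hidden, and probe summary can return equal values on several arrays.

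From these, log2 was taken without a pseudocount. Of 54675 probe sets, 41097 carried 1 symbol in the platform annotation, 1801 several and 11777 none. Entrez identifiers of 41043 matched the RefSeq table of GRCh38.p14, which updated 0 symbols. A gene entered a comparison at a level of at least 6 on any compared array. Spheroid and 2D were compared by difference, without a test. The hairpin arrays were tested against shGFP with limma 3.58.1 in R 4.3.3 (intensity trend, Benjamini-Hochberg over all genes, threshold 0.05), tested on simulated data. Groups came from the labels. Members, gene lists and the rule for named genes were chosen with earlier results of these data known. That rule took the 2 highest and 2 lowest members of each complex in each comparison, members past a difference of 1, the isoform genes, the members of highest and lowest mean level, and the extremes of each other list. Other genes named, among them NDUFV1, NDUFS1, NDUFB11, NDUFB5, NDUFB10, NDUFV3, NDUFB9 and the stalk genes, were chosen for their role or after their values were seen. Alternatives varied the level filter, the probe set per gene, the centring, the reference and the arrays in the fit. Arrays have no sequencing depth, and their number limits the precision. Python 3.11.15 with pandas 2.3.3 was used.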

Additional observations from a re-analysis of the deposited data

How the results depend on the processing

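The median of the subunit genes stayed below 0 in both main comparisons under every alternative run. For spheroid minus 2D it was -0.037 with the median over the probe sets of a gene, -0.060 without probe sets ending in _s_at or _x_at and -0.070 when arrays were centred on expressed genes. Over all genes these settings gave -0.020, 0 and 0.018 in turn. For the hairpins it was -0.071 with the median over probe sets, -0.062 centred on expressed genes, -0.065 centred on ribosomal protein genes and -0.060 against the mean of 2D and shGFP. All genes gave -0.028, 0.0069, 0.0042 and -0.024 under these settings. Leaving out shTRIB1-1 and shTRIB1-2 in turn gave -0.083 and -0.051, against -0.0097 and -0.027 over all genes. For shGFP minus 2D, both control arrays, it was also -0.037 with the median over probe sets, where all genes gave 0. The subunit genes higher by 0.5 in the spheroid numbered 2 with no level filter and 4 without _s_at and _x_at probe sets, and those lower by 0.5 numbered 5 without these probe sets. Genes lower by 0.5 on all hairpin arrays used numbered 3 to 4 with 1 array left out, since fewer arrays were required. The hairpin difference of NDUFB2 ran from -1.11 without shTRIB1-2 to 0.081 without shTRIB1-1, so its sign turned. Limma called 0 genes under all 7 alternatives to its setting, with smallest adjusted p-values of 0.557 to 0.991. Of the 10 complex medians, 5 changed sign without _s_at and _x_at probe sets. Among them were complex II (0.14, from SDHC and SDHD without SDHA) and complex III (-0.14) in the spheroid. With the median over probe sets 3 changed sign, namely complex III (-0.036) and complex IV (0.018) in the spheroid and complex III (-0.030) on the hairpin arrays. Complex II on the hairpin arrays turned to just below 0 against the mean of 2D and shGFP. The alternatives for the mitochondrially encoded subunits were chosen after seeing the data. The causes of these changes were not tested. Of 35 other bright probe sets of the subunit genes, 27 had the sign of the chosen one in the spheroid, 30 with shTRIB1-1 and 27 with shTRIB1-2. No paired analysis was possible because every comparison had a group with a single array.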

Other observations

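Some dim further probe sets of bright subunit genes were higher on the spheroid array, and they were singled out after their values were seen. Among subunit genes whose chosen probe set had a mean level of at least 10, 39 further probe sets lay at least 4 below the chosen one, many of them near background. Their median difference, spheroid minus 2D, was 0 without a level filter. Of the 39, 9 (23.1%) were higher by at least 0.5, 5 (12.8%) by at least 1 and 2 (5.13%) lower by at least 0.5. Over all genes the shares were 11.7%, 4.07% and 7.6% of 1500 such probe sets. With the level filter of 6 only 17 remained for the subunit genes and 436 over all genes. Of these 35.3% and 24.8% were higher by at least 0.5, 23.5% and 10.8% by at least 1, and 5.88% and 15.6% lower by at least 0.5. The dim probe set of NDUFB8 was at 6.59 on the spheroid array and 4.95 on the 2D array, a difference of 1.64, while its bright ones differed by -0.55 and -0.70. That of COX7B was at 8.15 and 6.75, a difference of 1.40, beside -0.097 for the bright one. That of UQCRC2 was at 8.13 and 6.89, a difference of 1.24, in the same direction as the 0.27 and 0.25 of its bright ones. That of UQCR10 was at 7.28 and 7.84, a difference of -0.56, beside 0.20 for the bright one. Which transcripts these dim probe sets match was not tested.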
